A study of Hordeum vulgare with 18 samples.

Results

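The phenylpropanoid and lignin genes of highland barley were followed across leaves and roots of plants given organic fertilizer in place of chemical nitrogen. A locus was taken as a member when its functional description named an enzyme or protein of the pathway and it had a count in any library. This gave 141 members of 32529 loci with a count, and 168 loci matched the same words with or without a count. The members comprised 11 loci for phenylalanine ammonia-lyase (PAL), 4 for cinnamate 4-hydroxylase (C4H), 11 for 4-coumarate-CoA ligase (4CL) and 19 for hydroxycinnamoyltransferases (HCT). A further 2 were caffeoyl-CoA O-methyltransferases (CCoAOMT), 33 cinnamoyl-CoA reductases (CCR), 13 cinnamyl alcohol dehydrogenases (CAD), 24 laccases and 24 dirigent proteins. Of the 19 HCT loci, 11 were described as putrescine or tryptamine hydroxycinnamoyltransferases.

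The phenylpropanoid pathway turns the amino acid phenylalanine into hydroxycinnamoyl-CoA esters, from which plants make lignin monomers, flavonoids and amides of polyamines. PAL, C4H and 4CL form its shared entry. HCT joins the hydroxycinnamoyl group to shikimate, CCoAOMT methylates caffeoyl-CoA, and CCR and CAD reduce the side chain to monolignols. Laccases oxidise monolignols in the cell wall, where lignin stiffens xylem vessels. Dirigent proteins guide the coupling of such radicals into lignans and related products.

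Plants grew in pots of 3.5 kg soil and were sampled at flowering. Chemical nitrogen was replaced at 0%, 40% or 100%, with total nitrogen, phosphorus and potassium held equal. Pots at 0%, the control, received 357 mg urea with 1545 mg superphosphate and 140 mg potassium sulfate, and no organic fertilizer. Pots at 40% received 215 mg urea, 1443 mg superphosphate, 122 mg potassium sulfate and 1117 mg organic fertilizer. Pots at 100% received no urea, with 1289 mg superphosphate, 96 mg potassium sulfate and 2793 mg organic fertilizer. The rates therefore differed in several fertilizers together. Each rate had 3 leaf and 3 root libraries. The design text speaks of parts above and below ground where the sample labels say leaf and root. No label says whether replicates came from separate plants or pots, so the p-values cover the variation among these libraries alone, which may be technical.

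Library totals were 16.5 to 18.99 M counts in leaf and 12.97 to 16.9 M counts in root. Photosynthesis markers (the small subunit of Rubisco and chlorophyll a-b binding proteins) summed to between 46961 and 110379 CPM (read counts scaled to a common library total) in leaf libraries and to at most 9.95 CPM in root libraries. The 12 loci chosen as root markers (Casparian strip proteins and nicotianamine synthases) went against their name. They summed to between 376 and 2502 CPM in leaf and between 65.0 and 169 CPM in root, so the root label rests here on the near absence of leaf markers. Senescence markers separated the control leaves, with 15543, 821 and 14983 CPM in libraries 1 to 3, and 1312 to 5290 CPM in 100% leaves. Leaf library 2 at 100% held the highest leaf level of 10 of the 20 members that were at least 100-fold higher in control roots than in control leaves and had a count in some leaf library. Root library 1 at 40% differed from the other two at that rate for many members. In such tissue samples, fewer cells of a type and less RNA per cell cannot be told apart.

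The pathway was mainly a root pathway in these plants. Members took 1.13% to 1.65% of the counts of a root library and 0.127% to 0.234% of those of a leaf library. In root libraries 110 to 123 members had a count, against 54 to 78 in leaf libraries. No leaf library held a count of 46 members, and no root library held a count of 6. In control plants, 108 members passed the filter on low counts over both organs. Of these, 74 were higher and 16 lower in root than in leaf (edgeR, adjusted p under 0.05), a share of 83.3%, against 56.2% of all genes tested (30.3% higher and 25.9% lower). The median log2 difference, root over leaf, was 4.34 over these members and 0.05 over all genes. With the 33 members that had no count in one organ set at the bound that 3 counts over the group allow, the members' median was 3.74. Members with counts in root alone passed the filter through root, so these values describe the members tested and not all 141. Another scaling (library size alone) moved the median of all genes by 0.23 and left 74 members higher and 13 lower.

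**Figure D1:**
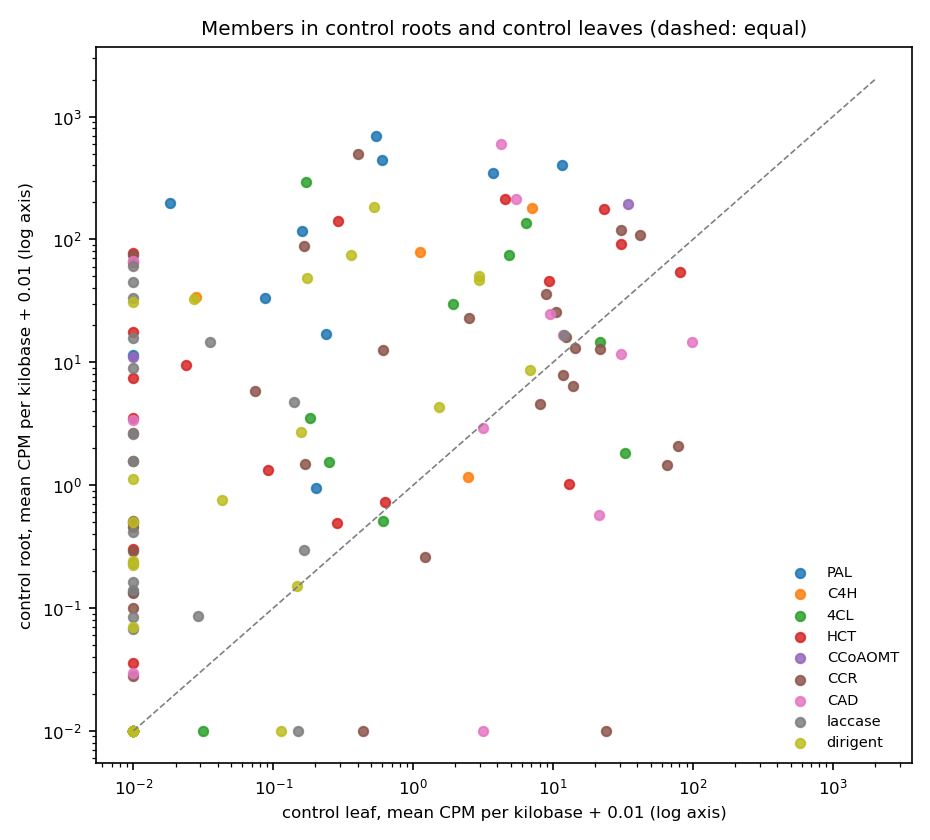
Mean level of each of the 141 members in control roots (vertical axis) and control leaves (horizontal axis), in CPM per kilobase of locus plus 0.01, both on log axes, coloured by enzyme family. Most points lie above the dashed line of equal level, and members at the left edge had no count in control leaves.

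Nearly all PAL loci stood higher in root. PAL deaminates phenylalanine and opens the pathway, and 10 of its 11 loci were called higher in root with none lower. PAL sums over the 11 loci were 5290, 5715 and 6758 CPM in control roots, against 54.1, 38.8 and 38.5 CPM in control leaves. The locus D1007_46592 (SDOW01000683.1:2139675-2143358, plus strand) had the highest root level per length of the 11, at 806 CPM per kilobase over the 9 root libraries, but only 0.725 CPM per kilobase in leaf. Its neighbour on the same scaffold, D1007_46588 (SDOW01000683.1:1911783-1916099, plus strand), carried 82.2% of the PAL counts of leaf and had 458 CPM per kilobase in root. In control roots it had 969, 999 and 1242 CPM, against 34.8, 28.1 and 28.4 CPM in control leaves (log2 difference 4.92 ± 0.42, SE; edgeR adjusted p = 7.67e-08).

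Most loci of the steps after PAL were also higher in root, and the 16 members lower in root were 8 CCR, 4 CAD, 2 HCT and 2 4CL loci. C4H, which hydroxylates cinnamate, had 3 of 4 loci higher in root. CCoAOMT, which methylates caffeoyl-CoA, had both loci higher. Of the 16 HCT loci tested, 12 were higher and 2 lower in root. Of these 16, 10 were described as putrescine or tryptamine transferases, with 7 higher and 2 lower. The HCT counts are therefore not those of the shikimate step alone. Among 9 tested 4CL loci, 6 were higher and 2 lower, and both lower ones were described as ligase-like, a group whose substrates differ. For CCR, 15 of 26 loci were higher and 8 lower, and for CAD 5 of 11 were higher and 4 lower. Most CCR descriptions are uncertain, since the other description field, not used in choosing members, named a cinnamoyl-CoA reductase for 5 of the 33 and a flavonoid reductase for 21.

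Neighbouring CAD loci differed in which organ was higher. The most abundant CAD of leaf, described as CAD8C, is a locus the authors assembled from reads (assembled locus 83, SDOW01000009.1:11416665-11418696). It had 29.7, 23.8 and 26.6 CPM in control roots, against 108, 188 and 238 CPM in control leaves (log2 difference -2.95 ± 0.42, edgeR adjusted p = 1.86e-05). The next CAD on that scaffold, D1007_01228 (CAD8B, SDOW01000009.1:11448146-11450074), ran the other way. It had 860, 774 and 958 CPM in control roots, against 3.89, 10.1 and 4.20 CPM in control leaves (log2 difference 6.93 ± 0.74, edgeR adjusted p = 9.57e-07). A CAD1 pair on another scaffold differed likewise. D1007_23170 had 176, 162 and 107 CPM in control roots and no count in any leaf library, which puts it at least 2722-fold higher in control roots against a floor of 3 counts over the 3 control leaves. D1007_23172, next to it in the set, had 13.3, 17.0 and 14.9 CPM in control roots, against 44.6, 29.9 and 42.9 CPM in control leaves. These pairs were picked out after their values were seen.

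Among the CCR loci, D1007_42693, whose descriptions both name a cinnamoyl-CoA reductase, made up 49.8% of the CCR counts of root. It had 852, 854 and 1078 CPM in control roots, against 0.533, 1.02 and 0.681 CPM in control leaves. D1007_14629, also named a cinnamoyl-CoA reductase in both fields, had the reverse pattern, with 1.196, 1.60 and 3.14 CPM in control roots, against 97.1, 98.3 and 70.9 CPM in control leaves (log2 difference -5.69 ± 0.46, edgeR adjusted p = 5.41e-08). The CCR assembled locus 3527 (SDOW01000615.1:1403972-1413203) had no count in any root library and 25.1, 38.3 and 30.7 CPM in control leaves, at least 515-fold lower in control roots.

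Most laccases and many dirigent proteins had no leaf count, and 1 locus carried the laccase counts of leaf. Laccase sums averaged 468 CPM in control roots and 27.9 CPM in control leaves. Of 24 laccases, 15 had no count in any leaf library, and laccase-7 (D1007_27981) made up 97.0% of the laccase counts of leaf. Its neighbour laccase-8 (D1007_27982), on the same scaffold, had no count in any leaf library and 94.3, 72.2 and 55.0 CPM in control roots. Both loci of this pair are called ascorbate oxidase precursors in that other description field. Of 17 laccases tested over both organs, 11 were higher in root and none lower, and 10 of 12 dirigent loci tested were higher with none lower. Over all genes, 30.3% were higher and 25.9% lower. Of those tested, 13 laccases and 2 dirigent loci had no count in 1 of the 2 control groups, mostly leaf. Loci with counts in root alone passed the filter through root and could hardly be called lower, so no conclusion is drawn from the lack of lower calls.

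**Figure D2:**
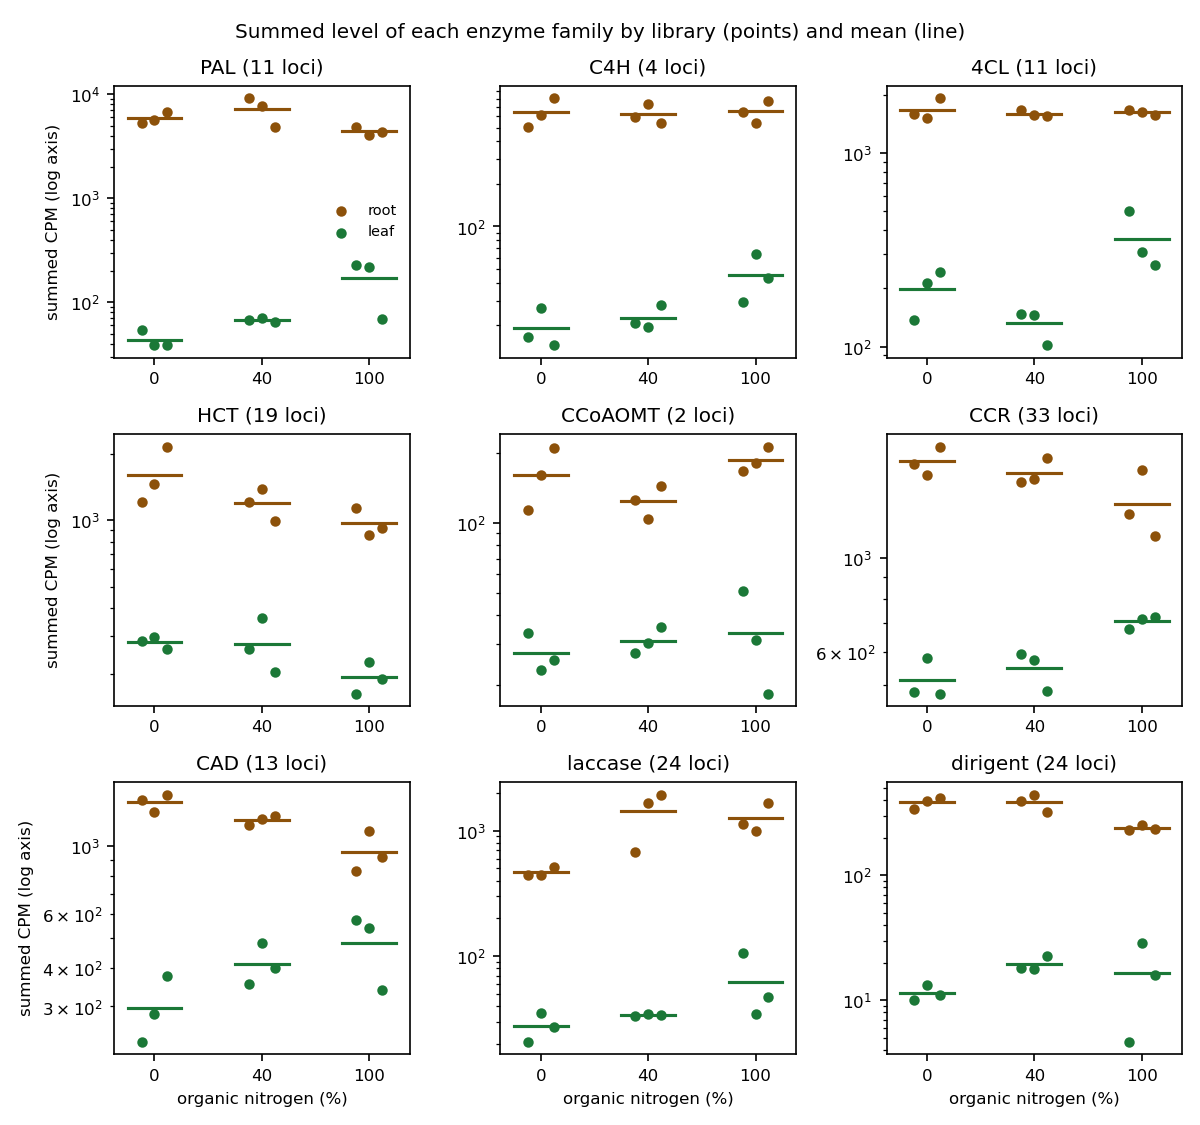
Summed CPM of each family by library (points) with the mean of 3 libraries (line), for root (brown) and leaf (green), against the share of chemical nitrogen replaced by organic fertilizer; the vertical axes are logarithmic. Laccase sums of root average 468 CPM at 0%, 1423 CPM at 40% and 1261 CPM at 100%, and PAL sums of leaf average 43.8, 67.3 and 172 CPM.

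Between leaves at 100% organic nitrogen and leaves of control pots, members of several families were called. Those that rose included a PAL, a C4H, 4CL3, HCT1, a CAD5 and a CAD8B. The 4CL3 and CAD8B calls were lost when some single libraries were left out. A 4CL4 fell, CCR loci split with 2 higher and 2 lower, and the CCoAOMT locus tested was not called. Of 5 tested putrescine or tryptamine hydroxycinnamoyltransferases, 2 fell. Of 60 members that passed the filter in leaf, 9 rose and 5 fell, or 23.3%, and 22.9% of all genes tested were called (13.0% higher and 9.98% lower). The share called among the members was thus near that of all genes. Their median log2 difference was 0.75, against -0.07 over all genes, with 42 of 60 members above 0. Scaling by library size alone moved the median of all genes by -0.25 and the share of higher calls over all genes to 37.2%, against 56.5% with the main scaling. It gave 9 members higher and 6 lower.

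The leaf PAL D1007_46588 had 34.8, 28.1 and 28.4 CPM at 0%, 48.4, 46.5 and 61.3 CPM at 40%, and 208, 182 and 58.9 CPM at 100%. The 100% and 0% libraries did not overlap, although library 3 at 100% lay far below the other two. The log2 difference, 100% over 0%, was 2.54 ± 0.41 (edgeR adjusted p = 0.0029), and it was 1.77 ± 0.39 against 40% (adjusted p = 0.0149). The call against 40% was lost without leaf library 1 or 2 at 40% (adjusted p = 0.0565 to 0.0676).

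C4H stands next in the pathway, and its main leaf locus was assembled locus 413 (SDOW01000041.1:2214193-2217918). It averaged 37.6 ± 12.3 CPM in 100% leaves and 13.7 ± 6.83 CPM in control leaves (SD, n = 3 each), with all 100% libraries (27.9, 51.3 and 33.5 CPM) above the control libraries (8.68, 21.5 and 10.96 CPM). The log2 difference was 1.69 ± 0.37 (edgeR adjusted p = 0.0116). 4CL3 (D1007_35368), which activates coumarate to its CoA ester, had 298, 160 and 49.7 CPM in 100% leaves, against 28.2, 37.7 and 48.5 CPM in control leaves. Library 3 at 100% barely exceeded the highest control library. The log2 difference of 2.41 ± 0.62 (edgeR adjusted p = 0.022) lost its call without leaf library 1 at 100% (log2 difference then 1.68) or without any 1 of the 3 control leaf libraries, at adjusted p = 0.0565 to 0.0798.

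HCT1 (D1007_36610), described as a shikimate hydroxycinnamoyltransferase, had 75.5, 115 and 70.8 CPM in 100% leaves, against 30.5, 37.4 and 42.6 CPM in control leaves. All 100% libraries lay above all control libraries, and the log2 difference was 1.49 ± 0.23 (edgeR adjusted p = 0.00231). CAD5 (D1007_35943) was the member with the smallest adjusted p in this comparison. It had 215, 160 and 176 CPM in 100% leaves, against 29.996, 20.2 and 40.5 CPM in control leaves (log2 difference 2.87 ± 0.29, edgeR adjusted p = 0.000428). CAD8B (D1007_41753) averaged 34.7 ± 17.3 CPM in 100% leaves and 14.8 ± 2.97 CPM in control leaves, a log2 difference of 1.47 ± 0.34 (edgeR adjusted p = 0.014). That call was lost without control leaf library 1 (adjusted p = 0.0558).

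**Figure D3:**
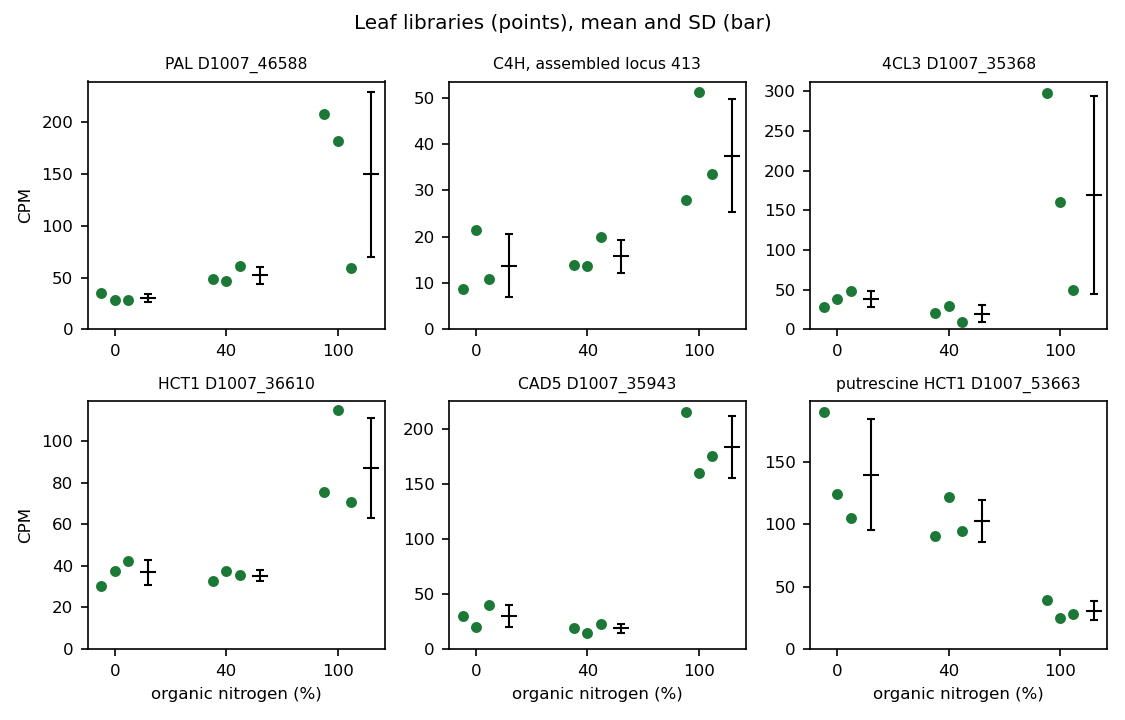
CPM of 6 members in the 9 leaf libraries (points) with mean and SD (bar), at 0%, 40% and 100% organic nitrogen; each vertical axis starts at 0. CAD5 reaches 160 to 215 CPM at 100%, against at most 40.5 CPM at 0%, and putrescine hydroxycinnamoyltransferase 1 lies between 24.9 and 39.7 CPM at 100%, against at least 105 CPM at 0%.

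CCR loci went both ways in leaf. Assembled locus 3527 had 128, 121 and 114 CPM in 100% leaves, against 25.1, 38.3 and 30.7 CPM in control leaves (log2 difference 2.20 ± 0.26, edgeR adjusted p = 0.000824). D1007_32578, called a dihydroflavonol reductase in its other description field, averaged 221 ± 15.2 CPM in 100% leaves and 115 ± 22.3 CPM in control leaves, a log2 difference of 1.19 ± 0.24 (edgeR adjusted p = 0.00795). Assembled locus 2555 (SDOW01000368.1:419825-608639) had 8.90, 11.05 and 9.03 CPM in 100% leaves, against 43.2, 38.0 and 40.5 CPM in control leaves, and fell by 1.82 ± 0.21 on the log2 scale (edgeR adjusted p = 0.000743). D1007_16110 fell by 1.73 ± 0.32 (adjusted p = 0.00524). Of these 4 loci, 3527 and 2555 are assembled from reads.

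Putrescine hydroxycinnamoyltransferases join hydroxycinnamate to a polyamine rather than to shikimate. Of the 5 loci for putrescine or tryptamine tested in leaf, 2 fell and none rose, and 2 had a log2 difference above 0. D1007_53663 had 39.7, 24.9 and 28.3 CPM in 100% leaves, against 190, 124 and 105 CPM in control leaves, with no overlap (log2 difference -1.93 ± 0.31, edgeR adjusted p = 0.00285). D1007_15375 had 3.06, 0.789 and 1.24 CPM in 100% leaves, against 3.996, 43.9 and 10.6 CPM in control leaves, where library 2 stood far above the others. Its log2 difference of -3.26 ± 0.96 (edgeR adjusted p = 0.0364) lost the call without control leaf library 2 (log2 difference then -1.78) or 3, or without leaf library 2 or 3 at 100%, at adjusted p = 0.0591 to 0.146.

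The last leaf calls were single loci. Laccase-7 (D1007_27981) had 106, 33.8 and 47.3 CPM in 100% leaves, against 20.4, 33.3 and 27.1 CPM in control leaves, and 1 library decided the size. The log2 difference was 1.47 ± 0.40 (edgeR adjusted p = 0.0263) and 0.84 without leaf library 1 at 100%. The call was also lost without control leaf library 1 or 3 (adjusted p = 0.0583 to 0.0917 over these 3). A 4CL4 (assembled locus 1715) fell, with 0.777 ± 0.321 CPM in 100% leaves and 3.94 ± 1.49 CPM in control leaves (log2 difference -2.09 ± 0.62, edgeR adjusted p = 0.0369), and lost its call without any 1 of the 6 libraries (adjusted p = 0.0528 to 0.139). None of 6 dirigent loci tested was called, although 4 had an unadjusted p under 0.05, as had 7427 of 20032 genes. Without each leaf library in turn, 9 of the 14 calls held in every case. The senescence markers differed between the same libraries, at 5290, 1312 and 1554 CPM in 100% leaves, against 15543, 821 and 14983 CPM in control leaves, and their part in these results was not tested. Without control leaf library 2, which was low in them, 10 members were called higher and 3 lower, beside 17.7% of all genes. Without leaf library 2 at 100%, 10 were higher and 3 lower, beside 17.5% of all genes.

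Leaves at 40% organic nitrogen had no called member. Of the 60 members tested, edgeR called 0 against control leaves at an adjusted p under 0.05, and 0.00998% of all genes (0.00499% higher and 0.00499% lower). At an unadjusted p under 0.05 there were 7, and 3635 of 20032 genes. DESeq2 called 3 of 95 members, all described as CCR, and 5.59% of all genes. Neither member share was above that of all genes. Leaving out control leaf library 2, edgeR called 2 members, 1 higher and 1 lower, and 4.99% of all genes. The members' median log2 difference was -0.02, with 30 above and 30 below 0.

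Leaves at 100% against 40% had 12 members higher and 6 lower, or 30% of 60, against 18.6% of all genes (11.1% higher and 7.52% lower). Scaling by library size alone moved the share of higher calls over all genes to 36.9%, against 59.6%, and gave 9 members higher and 7 lower. This comparison shares the 100% libraries with the one against control. CAD5 (D1007_35943) averaged 184 ± 28.5 CPM in 100% leaves and 18.9 ± 4.24 CPM in 40% leaves (log2 difference 3.55 ± 0.30, edgeR adjusted p = 0.000384). 4CL3 averaged 169 ± 124 CPM in 100% leaves and 19.7 ± 10.4 CPM in 40% leaves (D1007_35368, log2 difference 3.34 ± 0.65, adjusted p = 0.00846, and 2.62 without leaf library 1 at 100%). CAD8C (assembled locus 83) had 132, 74.4 and 54.4 CPM in 100% leaves, against 240, 327 and 312 CPM in 40% leaves (log2 difference -1.50 ± 0.38, edgeR adjusted p = 0.0239). Its call was lost without any 1 of the 40% leaf libraries or without leaf library 2 or 3 at 100% (adjusted p = 0.0545 to 0.0748). Of the 18 calls, 7 held without each library. Without leaf library 1 or without leaf library 2 at 40%, 8 members were called in all, 5 higher and 3 lower. The shares over all genes were then 7.25% and 9.88%. Without library 3 at 40% there were 11, beside 9.38% of all genes.

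Genes upstream and beside the members in leaf were read from lists chosen by their descriptions. The words for the shikimate route and phenylalanine supply also matched isochorismate synthase, PHYLLO, aminodeoxychorismate synthase and inactive shikimate kinase-like loci. The shares of this list are therefore not those of that route alone. Of its 22 tested loci, 7 were higher and 1 lower in 100% than in control leaves, or 36.4%, against 22.9% of all genes. One was D1007_41883, a DAHP synthase, the entry enzyme of the shikimate route, with 70.5, 60.1 and 117 CPM in 100% leaves, against 14.2, 28.6 and 16.6 CPM in control leaves (log2 difference 2.32 ± 0.34, edgeR adjusted p = 0.00205). Of 7 loci for other monolignol steps, 2 were higher and 2 lower, or 57.1% beside the same 22.9%. D1007_31768, a CYP84A1 (ferulate 5-hydroxylase, which leads to syringyl units in Arabidopsis), had 18.5, 57.8 and 34.7 CPM in 100% leaves, against 4.95, 10.3 and 5.90 CPM in control leaves (log2 difference 2.63 ± 0.43, edgeR adjusted p = 0.00318). A caffeoylshikimate esterase, D1007_29457, averaged 18.5 ± 10.4 CPM in 100% leaves and 3.42 ± 1.12 CPM in control leaves (log2 difference 2.67 ± 0.44, adjusted p = 0.00334).

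Of 6 flavonoid entry loci tested in leaf, 3 were higher at 100% than in control leaves and none lower, or 50%, against 22.9% of all genes. They included a chalcone synthase 2, D1007_34797, at 7.74 ± 5.76 CPM in 100% leaves and 0.569 ± 0.325 CPM in control leaves (log2 difference 3.99 ± 0.75, edgeR adjusted p = 0.00606). Without leaf library 2 at 100% its log2 difference was 3.36. Casparian strip membrane protein 2 (D1007_59456), of a family that builds the lignified strip of the root endodermis in Arabidopsis, had 37.2, 49.0 and 55.4 CPM in 100% leaves, against 1.55, 2.62 and 3.80 CPM in control leaves. Its log2 difference was 4.41 ± 0.38 (edgeR adjusted p = 0.000248). Of 12 tested loci of the list for secondary wall cellulose and xylem, 4 were higher in 100% than in control leaves and none lower. This was 33.3%, against 22.9% of all genes. The words of that list also took in fasciclin-like arabinogalactan and other wall proteins. The secondary wall cellulose synthases CESA4, CESA7 and CESA9, used as xylem markers, summed to at most 0.225 CPM in 100% leaves and 0.170 CPM in control leaves. In 40% leaves they summed to 21.2, 0.263 and 57.4 CPM.

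Between roots at 100% organic nitrogen and roots of control pots, 5 of 16 tested laccases rose and 1 fell. Of the other families, 2 of 10 tested PAL loci, 3 of 10 putrescine or tryptamine hydroxycinnamoyltransferases and 3 of 11 dirigent loci fell, with none of these higher. Of 101 members that passed the filter in root, 10 rose and 15 fell, or 24.8%, and 10.2% of all genes tested were called (4.69% higher and 5.54% lower). The median log2 difference was -0.27 over the members and 0.00 over all genes. Most of these calls lay close to the threshold. Without each root library in turn, 5 of the 25 held in every case. The number called was lowest without control root library 2, at 2 higher and 4 lower, beside 2.53% of all genes. It was 16 without control root library 1 (5.02% of all genes) and 9 without control root library 3 (4.02%). At 100% it was 8 without root library 3 (3.5%), 10 without library 1 (4.77%) and 17 without library 2 (9.22%). The share over all genes thus also fell, from 10.2% with every library. With all 18 libraries of both organs in 1 fit, 1 member was called higher and 4 lower, and 2.08% of all genes were called.

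**Figure D4:**
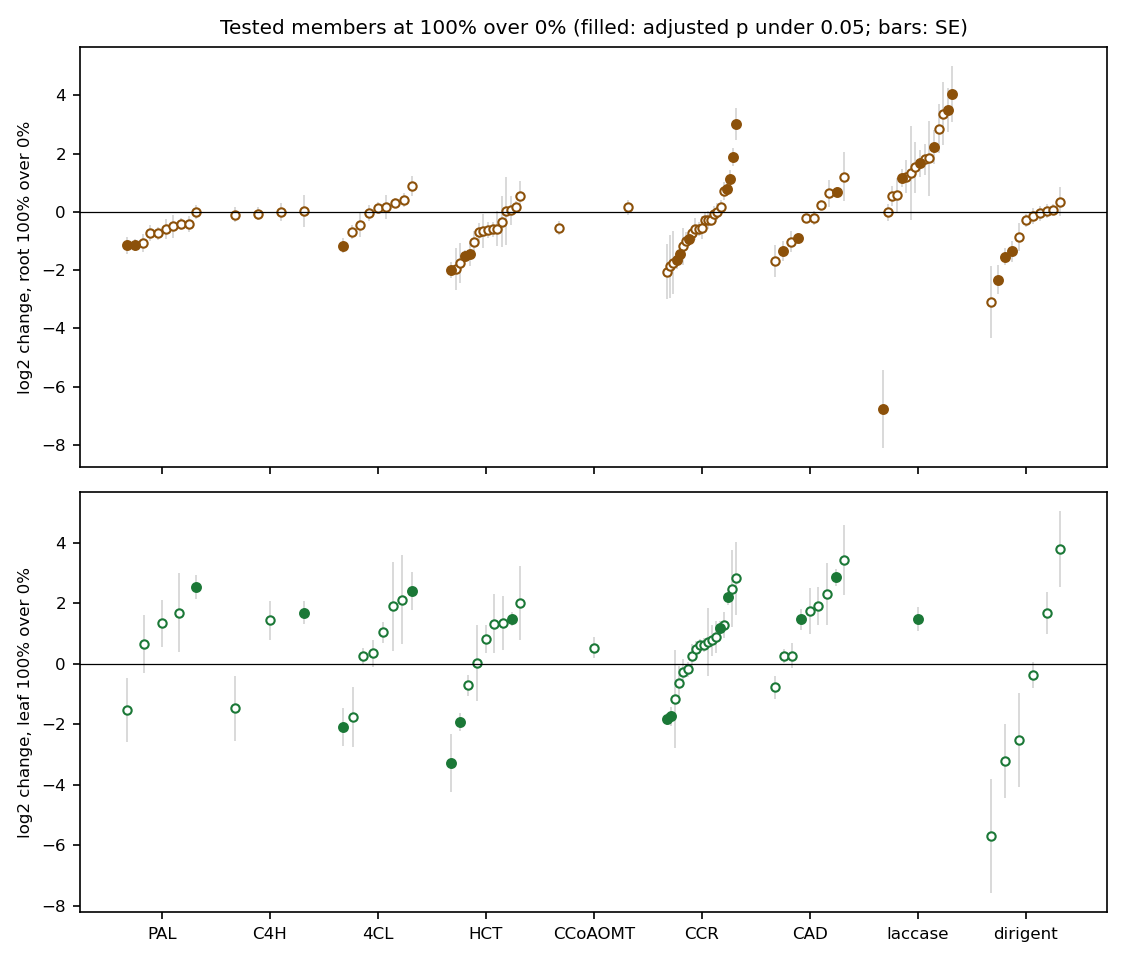
Log2 difference, 100% over 0%, of every tested member in root (upper panel, 101 members) and leaf (lower panel, 60 members), by family; filled points had an edgeR adjusted p under 0.05 and bars are the SE. In root no PAL locus lies above 0 on the main scaling, and in leaf the called PAL, C4H and CAD points all lie above 0.

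No PAL locus was above 0 in 100% roots, on the main scaling. All 10 PAL loci tested had a log2 difference below 0, with a median of -0.66, and 2 were called. In CPM of library totals, D1007_46588 averaged slightly higher in 100% than in control roots, so its sign depends on the scaling. D1007_46587 had 113, 127 and 115 CPM in 100% roots, against 234, 251 and 265 CPM in control roots (log2 difference -1.13 ± 0.21, edgeR adjusted p = 0.0131). The groups lay far apart, but the call was lost without control root library 2 or without root library 3 at 100% (adjusted p = 0.0515 and 0.0555). D1007_08514 averaged 22.8 ± 4.66 CPM in 100% roots and 48.8 ± 10.0 CPM in control roots (log2 difference -1.15 ± 0.30, edgeR adjusted p = 0.04), and its call was lost without any 1 of the 6 libraries (adjusted p = 0.0695 to 0.135). The most abundant PAL, D1007_46592, had 1325, 1165 and 1333 CPM in 100% roots, against 1538, 1808 and 2160 CPM in control roots, and was not called.

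C4H and CCoAOMT had no call in root and, of 9 tested 4CL loci, 1 fell. This was a 4CL2 (assembled locus 2428), at 3.72 ± 0.164 CPM in 100% roots and 7.95 ± 1.82 CPM in control roots (log2 difference -1.15 ± 0.25, edgeR adjusted p = 0.0219). It lost its call without control root library 2 or 3 or without root library 1 or 3 at 100% (adjusted p = 0.0570 to 0.0832). The main 4CL of root, 4CL3 (D1007_35368), had 939, 936 and 933 CPM in 100% roots, against 771, 752 and 913 CPM in control roots, and was not called.

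Of the 16 HCT loci tested in root, 3 fell and none rose, and all 3 were putrescine hydroxycinnamoyltransferases. D1007_53663, the locus that also fell in leaf, had 35.1, 31.9 and 33.5 CPM in 100% roots, against 123, 81.4 and 74.3 CPM in control roots (log2 difference -1.51 ± 0.18, edgeR adjusted p = 0.0025). D1007_35315, which had no count in any leaf library, had 40.4, 21.5 and 20.1 CPM in 100% roots, against 111, 102 and 109 CPM in control roots (log2 difference -2.01 ± 0.28, edgeR adjusted p = 0.00427). Both calls held without each library. D1007_22661 averaged 8.98 ± 3.20 CPM in 100% roots and 23.0 ± 10.7 CPM in control roots (log2 difference -1.45 ± 0.40, adjusted p = 0.0468). It lost its call without control root library 2 or 3 or without any 1 of the 100% root libraries (adjusted p = 0.0794 to 0.138).

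CCR loci moved in both directions, with 4 of 23 higher and 3 lower. D1007_32578, the CCR that rose in leaf, had 12.8, 11.5 and 10.5 CPM in 100% roots, against 3.52, 3.68 and 1.99 CPM in control roots (log2 difference 1.89 ± 0.31, edgeR adjusted p = 0.0087). D1007_56767 had 30.3, 31.9 and 38.0 CPM in 100% roots, against 124, 99.5 and 83.6 CPM in control roots (log2 difference -1.66 ± 0.30, edgeR adjusted p = 0.0112). Both calls held without each library. D1007_16110 fell in root as in leaf, with 17.0 ± 2.56 CPM in 100% roots and 31.4 ± 2.99 CPM in control roots (log2 difference -0.95 ± 0.21, adjusted p = 0.0232). Its root call was lost without control root library 2 or 3 or without any 1 of the 100% root libraries (adjusted p = 0.0565 to 0.0787). Of the 56 members tested in both organs at 100%, 1 was called higher in both, 2 lower in both, and none in opposite directions. No such count over all genes is given, so no conclusion is drawn on agreement between the organs.

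Of 10 CAD loci tested in root, 1 rose and 2 fell. CAD8B (D1007_01228), which carried 55.8% of the CAD counts of root, had 443, 564 and 442 CPM in 100% roots, against 860, 774 and 958 CPM in control roots (log2 difference -0.89 ± 0.18, edgeR adjusted p = 0.0182). The groups did not overlap, yet the call was lost without control root library 3 or without root library 1 or 3 at 100% (adjusted p = 0.0599 to 0.0675). CAD6 (D1007_31191) averaged 7.36 ± 1.59 CPM in 100% roots and 17.9 ± 5.92 CPM in control roots (log2 difference -1.35 ± 0.35, adjusted p = 0.0416). Its call held without control root library 1 alone (adjusted p = 0.0747 to 0.139 without any other). CAD1 (D1007_23172) rose by 0.69 ± 0.17 (adjusted p = 0.0321) and lost its call without any 1 of the 6 libraries (adjusted p = 0.0630 to 0.0930).

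Laccase counts were higher in 100% roots as a sum over the family. The 24 laccases summed to 1140, 994 and 1651 CPM in 100% roots, against 447, 440 and 517 CPM in control roots, so that every 100% library lay above every control library. Of 16 laccases that passed the filter, 5 rose and 1 fell. Of the 16, 4 had between 6 and 20 counts over the 3 control roots and passed the filter through the roots at 40% and 100% alone. Laccase-12 (D1007_59757) was among them. No median or count of signs is therefore given over the laccases, and no conclusion is drawn from the balance of their calls.

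Laccase-19 (D1007_11613, SDOW01000093.1:2240932-2243354, minus strand) had 71.5, 86.6 and 136 CPM in 100% roots, against 3.78, 5.87 and 7.13 CPM in control roots. Its log2 difference was 4.05 ± 0.95 (edgeR adjusted p = 0.0292). A second laccase-19, D1007_47280, had 224, 330 and 474 CPM in 100% roots, against 143, 139 and 155 CPM in control roots (log2 difference 1.17 ± 0.32, edgeR adjusted p = 0.0482). Neither gene's groups overlapped, and the spread among the 100% roots was wide for both. D1007_11613 lost its call without any 1 control root library or without root library 1 or 3 at 100% (adjusted p = 0.0554 to 0.112), and D1007_47280 without any 1 control root library or without root library 2 or 3 at 100% (adjusted p = 0.0763 to 0.160).

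Laccase-15 (D1007_09829) had the highest level per length of the root laccases, at 156 CPM per kilobase over the 9 root libraries. It had 352, 285 and 418 CPM in 100% roots, against 96.1, 97.6 and 123 CPM in control roots (log2 difference 1.67 ± 0.46, edgeR adjusted p = 0.0476). The groups were apart, but the call was lost without any 1 of the 6 libraries (adjusted p = 0.0599 to 0.161). Laccase-12 (D1007_59757) and laccase-22 (D1007_18182) also rose at low levels. They had 2.40 to 4.34 CPM and 3.43 to 5.32 CPM in 100% roots, against at most 0.543 and 1.30 CPM in control roots. Laccase-12 lost its call without control root library 2 or without root library 3 at 100%, and laccase-22 without any 1 of the 6 libraries (adjusted p = 0.0535 to 0.110 over both).

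The exception was laccase-9 (D1007_56949), which fell. It had no count in 2 of the 100% root libraries and 0.931 CPM in library 3, against 36.5, 29.7 and 36.5 CPM in control roots. That is 15 counts in the 100% group against 1685 in the control group. The log2 difference was -6.77 ± 1.33 (edgeR adjusted p = 0.0157), and the call was lost without control root library 2 or without root library 1 at 100% (adjusted p = 0.0521 and 0.0535). Without root library 3 at 100%, which held all 15 counts, the 100% group was at 0.

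**Figure D5:**
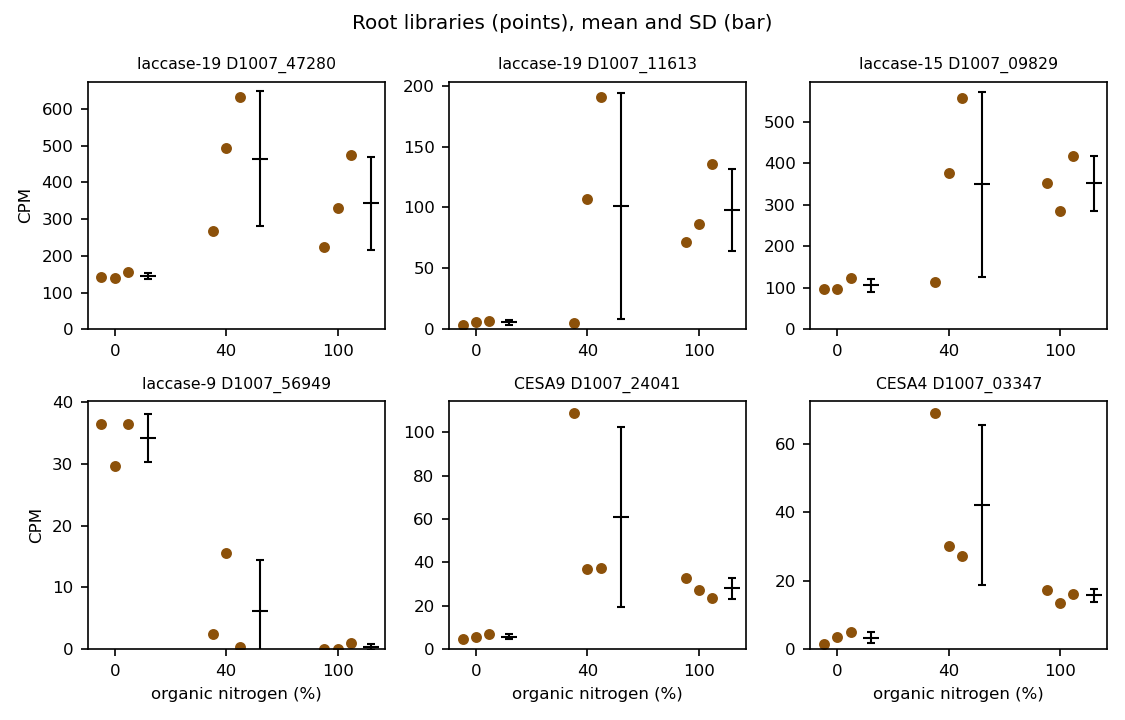
CPM of 4 laccases and the secondary wall cellulose synthases CESA9 and CESA4 in the 9 root libraries (points) with mean and SD (bar, cut at 0), at 0%, 40% and 100% organic nitrogen; each vertical axis starts at 0. The first 40% library of D1007_11613 lies at 5.37 CPM beside 107 and 191 CPM, while the same library is the highest for both cellulose synthases.

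Of 11 dirigent loci tested in root, 3 fell in 100% roots and none rose, and 3 had a log2 difference above 0. Dirigent protein 19 (D1007_05222), the most abundant of the family in root, had 59.1, 68.5 and 50.7 CPM in 100% roots, against 158, 169 and 174 CPM in control roots (log2 difference -1.54 ± 0.29, edgeR adjusted p = 0.0128). Its neighbour on the scaffold, dirigent protein 21 (D1007_05223), had 14.5, 14.1 and 12.7 CPM in 100% roots, against 34.5, 32.2 and 35.3 CPM in control roots (log2 difference -1.35 ± 0.36, edgeR adjusted p = 0.0423). Dirigent protein 5 (D1007_21752) averaged 3.84 ± 1.78 CPM in 100% roots and 18.4 ± 4.65 CPM in control roots (log2 difference -2.33 ± 0.49, adjusted p = 0.0201). No groups overlapped. D1007_05222 lost its call without control root library 2 or without root library 3 at 100% (adjusted p = 0.0506 and 0.0555), and D1007_05223 without any 1 of the 6 libraries (adjusted p = 0.0843 to 0.139). D1007_21752 lost it without control root library 2 or 3 or without root library 1 or 2 at 100% (adjusted p = 0.0507 to 0.0687).

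Roots at 40% organic nitrogen had no called member, and laccase sums were above those of control roots in all 3 libraries. Of 101 members tested, edgeR called 0 against control roots at an adjusted p under 0.05, and 0.306% of all genes (0.164% higher and 0.142% lower). At an unadjusted p under 0.05 there were 36, and 3295 of 21895 genes. Of 135 members, DESeq2 called 13 higher and 2 lower, and it called 3.59% of all genes. Laccase sums were 678, 1660 and 1931 CPM in 40% roots, against 447, 440 and 517 CPM in control roots.

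The smallest edgeR adjusted p among the 3 highest laccases was that of D1007_47280, with 268, 494 and 632 CPM in 40% roots, against 143, 139 and 155 CPM in control roots (log2 difference 1.65 ± 0.33, adjusted p = 0.0725). D1007_11613 had 5.37, 107 and 191 CPM in 40% roots, against 3.78, 5.87 and 7.13 CPM in control roots, so its first 40% library lay within the control range. D1007_09829 had 113, 378 and 558 CPM in 40% roots, against 96.1, 97.6 and 123 CPM in control roots, and the same library again lay within the control range. The PAL D1007_46592 spread the other way, with 4515, 3554 and 1635 CPM in 40% roots, against 1538, 1808 and 2160 CPM in control roots. Without root library 1 at 40%, edgeR called 4 members, all higher, and 0.673% of all genes.

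Roots at 100% against 40% had 10 members lower and none higher, or 9.90% of 101, against 4.59% of all genes (2.4% higher and 2.19% lower). Of the 10, 5 were dirigent loci, 2 HCT, 2 CCR and 1 PAL, and no laccase was called. D1007_53663 had 35.1, 31.9 and 33.5 CPM in 100% roots, against 90.8, 79.9 and 68.6 CPM in 40% roots (log2 difference -1.28 ± 0.18, edgeR adjusted p = 0.00825). It was the single call of the 10 that held without each library. The PAL D1007_11287 had 14.5, 10.8 and 7.94 CPM in 100% roots, against 26.3, 54.1 and 31.99 CPM in 40% roots (log2 difference -1.78 ± 0.31, edgeR adjusted p = 0.0183, and 0.0666 without root library 3 at 100%). Without root library 3 at 100%, 1 member was called in all, beside 0.929% of all genes. Without root library 3 at 40% there were 14, beside 3.86%. Without any 1 of the other 4 libraries there were 3 or 4, beside 1.38% to 3.36% of all genes.

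Genes of the secondary wall were also read in root. The list for secondary wall cellulose and xylem held 30 loci, of which 3 were CESA4, CESA7 or CESA9. Its words also took in COBRA-like, fasciclin-like arabinogalactan and irregular xylem proteins, so its shares are not those of the cellulose synthases alone. Of 24 tested loci, 7 were higher in 100% than in control roots and none lower, or 29.2%, against 10.2% of all genes. In 40% roots 6 were higher than in control roots and none lower, or 25%, against 0.306% of all genes. The CESA4, CESA7 and CESA9 sums, used as xylem markers, were 71.8, 51.0 and 59.3 CPM in 100% roots and 234, 92.5 and 88.8 CPM in 40% roots, against 8.05, 11.7 and 17.4 CPM in control roots. Within the 40% roots the order differed from that of the laccases, since library 1 had the highest of these sums and the lowest laccase sum. Their part in the laccase results was not tested. CESA9 (D1007_24041) averaged 27.9 ± 4.70 CPM in 100% roots and 5.75 ± 1.08 CPM in control roots (log2 difference 2.23 ± 0.43, edgeR adjusted p = 0.0139), and lost its call without control root library 1 or 2 (adjusted p = 0.0545 and 0.0698). CESA4 (D1007_03347) had 69.1, 30.04 and 27.2 CPM in 40% roots, against 1.57, 3.56 and 4.95 CPM in control roots (log2 difference 3.59 ± 0.48, adjusted p = 0.0328). Its call was lost without any 1 control root library or without root library 2 at 40% (adjusted p = 0.0532 to 0.213).

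In the shikimate and phenylalanine list, whose words also matched loci outside that route, 2 of 25 tested loci fell in 100% roots and none rose. This was a share of 8%, against 10.2% of all genes, so the list did not stand above the background. Both loci that fell were arogenate dehydratases, which make phenylalanine. D1007_28527 averaged 380 ± 83.0 CPM in 100% roots and 731 ± 162 CPM in control roots (log2 difference -1.0 ± 0.25, edgeR adjusted p = 0.036), and D1007_28526 averaged 92.0 ± 32.1 CPM in 100% roots and 212 ± 12.9 CPM in control roots (log2 difference -1.24 ± 0.25, adjusted p = 0.0174). Both lost the call without control root library 2 or 3 or without root library 3 at 100%, and D1007_28527 also without root library 2 at 100% (adjusted p = 0.0551 to 0.121 over both).

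The response to 100% organic nitrogen differed between root and leaf for 15 members. The difference itself, the log2 change in root minus that in leaf, was tested over 108 members, with 3 positive and 12 negative calls (13.9%), against 15.9% of all genes (7.2% positive and 8.71% negative). The share among the members was thus not above that of all genes. The fit of both organs gave each gene 1 spread for leaf and root together. Scaling by library size alone moved the median of all genes by 0.33 and the share of positive calls over all genes to 69.6%, against 45.3%, and gave 4 positive and 6 negative members. The PAL D1007_46588 rose in leaf and in root had 1064, 1021 and 1261 CPM at 100%, against 969, 999 and 1242 CPM at 0%, a response difference of -2.58 ± 0.51 (edgeR adjusted p = 0.0038). HCT1 (D1007_36610) differed by -1.37 ± 0.32 (adjusted p = 0.00977) and the C4H assembled locus 413 by -1.79 ± 0.45 (adjusted p = 0.0144). Assembled locus 2555, the CCR that fell in leaf, differed by 1.51 ± 0.30 (adjusted p = 0.00415). At 40%, 1 of 108 members was called, with a negative difference, against 1.9% of all genes (1.22% positive and 0.674% negative).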

How the data were processed

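The deposited table held whole-number read counts per gene for 18 libraries, which the authors made before deposition. Tools named in the submitters' processing notes are DESeq2 1.20.0, featureCounts 1.5.0-p3, HISAT2 2.0.5, fastp and CASAVA 1.8. The notes also name mouse genome builds, although the loci lie on barley scaffolds; the barley assembly, strand setting and handling of multiply mapped reads are not given in the sources used here. Libraries were made from total RNA isolated with TRIzol, per the labels.

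Members were found by words in the second description field, and 8 of the 141 were loci assembled from reads. In 15 clusters, 33 members of 1 family lay within 100 kb of each other, and 3 members overlapped another locus, so reads may have been split or shared among such copies. The test on these counts was that of edgeR 4.0.16 under R 4.3.3 (quasi-likelihood F test, TMM, filterByExpr with a minimum count of 10 and a minimum total of 15, 2-sided). The Benjamini-Hochberg adjustment ran across every gene in a fit, with a threshold of 0.05. Of the 141 members, 60 passed the filter in leaf, 101 in root, 56 in both, 36 in neither and 108 in the fit of both organs. The 9 leaf libraries (20032 genes) and the 9 root libraries (21895) were fitted separately because their spread differed. The common biological coefficient of variation was 45.8% in the leaf fit and 27.7% in the root fit. Organ differences and response differences came from all 18 libraries (24046 genes), where it was 38.7%. Those tests thus used 1 spread for both organs, lower than that of leaf alone and higher than that of root alone. CPM are of library totals, given as mean ± SD (n = 3); 3 counts correspond to 0.158 to 0.182 CPM in leaf and 0.178 to 0.231 CPM in root. Intervals of 1 SE come from the fit. The tests were checked on simulated data. Alternatives were RLE and library-size scaling, no filter, a replicate block, DESeq2 1.42.0, a joint fit of both organs, and each library left out in turn.

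Genes were named by rule: per family the highest in each organ, and per comparison and family up to 3 called members of smallest adjusted p with at least 5 CPM in the higher group; of the other lists, up to 2 per comparison. Laccase-8, laccase-12, laccase-22 and the neighbouring pairs were named after their values were seen where they fell outside it. Members and lists were chosen with earlier results of these data known. No locus tag matched the RefSeq gene table, so no sequence is shown.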

Additional observations from a re-analysis of the deposited data

Results flagged for a closer look

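For 15 members at 100% and 1 at 40%, the response to organic nitrogen differed between root and leaf in a direct test of that difference (edgeR, 108 members tested, adjusted p under 0.05). These were 13.9% of the members at 100%, against 15.9% of all genes, and 0.926% at 40%, against 1.9%. Members were thus not called more often than all genes. The value is the log2 change in root minus the log2 change in leaf. At 100% over 0% the negative differences were -2.58 for the PAL D1007_46588, -6.61 for the PAL D1007_11287, -1.79 for the C4H assembled locus 413 and -2.29 for 4CL3 (D1007_35368). HCT1 (D1007_36610) stood at -1.37, and the CCR D1007_14629 at -1.84. Among CAD loci the values were -1.28 for D1007_41753, -2.67 for D1007_01228, -2.18 for D1007_24864 and -3.69 for CAD6 (D1007_31191). Dirigent proteins had -5.38 for D1007_05222 and -6.03 for D1007_05223. Positive differences were 1.51 for the CCR assembled locus 2555, 2.46 for the 4CL4 assembled locus 1715 and 5.38 for the dirigent protein D1007_08380. At 40% over 0% the dirigent protein D1007_01940 had -3.34. The leaf levels of D1007_11287 and D1007_05223 rest on 1 library each beyond traces, leaf library 2 at 100%, with 0.789 and 1.58 CPM. Without that library the difference of D1007_11287 was -1.12 and that of D1007_05223 was 0.44, and neither was called. Of the 15 members called at 100%, 7 kept the call without each library.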

How the results depend on the processing

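Of 137 called results named by rule, 94 kept their call under every alternative that used all libraries, and 83 without each library in turn. Members in root against leaf gave 26 of them, all kept without each library. Over every called member, 76 of 90 held there, against 9 of 14 for 100% against 0% leaves and 7 of 18 against 40%. In roots 5 of 25 and 1 of 10 held. Of the 137, calls lost numbered 9 with library size alone, 2 with no filter and 29 with all 18 libraries in 1 fit. None was lost with RLE scaling, or with DESeq2 where it gave an adjusted p. Of all 90 members called in root against leaf, DESeq2 also called 88. Counts of called members that moved by over 1.5 times were as follows. With DESeq2 they were 24 of 95 for 100% against 0% leaves, beside 23.1% of all genes. For 40% against 0% leaves they were 3 of 95, beside 5.59% of all genes. In roots DESeq2 called 15 of 135 for 40% against 0%, beside 3.59%, and 22 of 135 for 100% against 40%, beside 7.2%. For the response difference DESeq2 called 27 of 141 at 100%, beside 16.8%, and 9 of 141 at 40%, beside 5.43%. With all 18 libraries in 1 fit, 108 members were tested. In that fit leaves had 28 for 100% against 0% (30.8% of all genes), 7 for 40% against 0% (6.31%) and 32 for 100% against 40% (27.9%). Roots at 100% had 5 against 0% (2.08% of all genes) and 1 against 40% (0.761%). With no filter 4 of 135 were called for 40% against 0% roots, beside 0.67% of all genes. The cause was not tested.

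Without each library, the counts ran from 10 to 19 for 100% against 0% leaves (11.5% to 21% of all genes). They ran from 0 to 2 for 40% against 0% leaves (0% to 4.99%) and 8 to 17 for 100% against 40% leaves (7.25% to 16.8%). Root counts ran from 6 to 17 for 100% against 0% (2.53% to 9.22%) and 0 to 4 for 40% against 0% (0% to 0.673%). For 100% against 40% roots they ran from 1 to 14 (0.929% to 3.86%), and for root against leaf from 78 to 85 (48.9% to 51.4%). For the response difference they ran from 7 to 22 at 100% (9.85% to 18.2%) and 0 to 5 at 40% (0.00805% to 5.42%). Directions turned for the uncalled differences, 100% over 0%, of D1007_39361 in leaf (-0.00144 with library size alone), of D1007_29794 in root (-0.0796 without control root library 1, up to 0.48 without library 3) and of assembled locus 413 in root (0.0112 with library size alone, 0.21 without control root library 3, 0.0502 without root library 2 at 100%, and down to -0.25 without control root library 1). The response difference of D1007_05223 at 100% was 0.44 without leaf library 2 at 100% and ranged down to -7.86 without control leaf library 1, so its sign rests on 1 library.

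Replicate numbers did not pair libraries of different rates within an organ: correlations of same-numbered libraries after removing group means ran from -0.16 to 0.16. Whether leaf and root libraries of the same number and rate came from the same plant or pot is not labelled. That pairing was not examined, and the tests over both organs treated these libraries as independent. With the replicate number as a block, 25 single-gene calls were lost. The block gave 12 called members for 100% against 0% leaves (18.3% of all genes) and 19 for 100% against 0% roots (6.83%). It gave 4 for 100% against 40% roots (1.96% of all genes) and 0 for the response difference at 40% (0.877%). At these depths 3 counts are 0.178 to 0.231 CPM in root and 0.158 to 0.182 CPM in leaf, and lower levels could not be seen.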
